A study of Mus musculus with 1016 samples.

Results

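Dppa4, Dppa2 and Dppa3 are developmental pluripotency associated genes of the mouse, and their replication timing (RT) was examined in 714 single cells of 14 groups. The 3 genes were taken by name out of 20807 protein-coding genes on chromosomes 1 to 19. Each gene lies within a single 50 kb bin, so that 3 of 49264 bins stand for the genes, and the bins 0.5 Mb to either side of them were described as well. The genes had been selected on the share of cells that had replicated them, so the shares, RT values and differences below are a description with no test.

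Single-cell Repli-seq reads the copy number of DNA along the genome of a cell in S phase and splits the genome into replicated and unreplicated bins. It was applied to embryos of the cross (C57BL/6J x CBA) x DBA/2J that were untreated: 66 zygotes (20 to 26 h after injection of the ovulation hormone hCG), 63 cells of 2-cell embryos (32 to 40 h), 55 of 4-cell embryos (50 to 56 h), 56 of 8-cell embryos (66 to 72 h), 40 of 16-cell embryos (77 to 80 h), 47 of morulae (90 to 96 h) and 70 of the inner cell mass (ICM) of blastocysts (96 to 104 h). Of the same cross were 57 zygotes from in vitro fertilization (IVF; collected from 5.5 h after insemination) and 3 groups of 2-cell embryos collected from 34 h after hCG. The 42 cells with α-amanitin (0.1 mg/mL, to 39 h) and the 67 cells with DRB (100 µM, to 40 h), both inhibitors of transcription by RNA polymerase II, had been treated from 17 h after hCG, and the 56 KDM5B cells (to 40 h) came from zygotes injected at 18 h with mRNA for this H3K4 demethylase at 2 µg/µL. Parthenotes (57 cells, 5.5 to 12 h after activation with Sr2+) and maternal pronuclei (21, at 21 to 25 h after hCG) had the genotype (C57BL/6J x CBA)F1, and paternal pronuclei (17, at 21 to 25 h) that of DBA/2J.

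All embryos were grown in culture from oocytes or zygotes of superovulated females under 10 weeks of age. The cells of a group came from several litters, but no label ties a cell to a litter or an animal, so each group counted as 1 pooled sample. No mock-injected control, and no uninjected control of their own, was labelled for the KDM5B embryos. The untreated 2-cell embryos, which were not injected, served for all 3 treated groups. ICM cells were told from trophectoderm cells only by their lack of fluorescent beads. The strains of the maternal and paternal pronuclei differed, so parent of origin and strain cannot be told apart. The deposited states hold DNA only, so no marker gene could check the labelled stage or cell type.

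DPPA2 and DPPA4 are chromatin-bound proteins with SAP domains that act as a pair. They are known for activating Dux and other genes of the 2-cell embryo and young LINE-1 elements, and for keeping promoters of developmental genes poised in pluripotent cells. DPPA3, also named Stella or PGC7, is stored in the oocyte and protects the maternal genome from loss of DNA methylation after fertilization. It also acts on UHRF1. In most cells actively transcribed, gene-dense chromatin replicates early in S phase and silent chromatin at the nuclear lamina replicates late.

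Dppa4 (ENSMUSG00000058550.15) spans positions 48283733 to 48294237 of chromosome 16 in the GRCm38 build, and Dppa2 (ENSMUSG00000072419.5) spans 48303908 to 48319723 of the same chromosome. Both lie on the plus strand, in neighbouring bins that meet at position 48300000. Dppa3 (ENSMUSG00000046323.8), also on the plus strand, spans 122626410 to 122630272 of chromosome 6 and shares its bin with Gdf3, a TGF-β family ligand of pluripotent cells. The bin of Dppa3 had a GC content of 45.1%, above 80.2% of the bins of chromosomes 6 and 16. The bins of Dppa4 (43.9%) and Dppa2 (42.4%) lay above 72.2% and 62.6% of these bins. Dppa4 was the richest in GC of the 22 bins of its region, in which the other bins had 38% to 42.4%.

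Cells with a replication score, the percentage of a cell's bins in the replicated state, of 10% to 90% entered all values. The mean score of the groups ran from 40.8% in 4-cell embryos to 61.1% in IVF zygotes, and a group with more cells late in S phase has higher shares at every bin. For this reason the share of cells was read beside the median bin of the same group, and groups were compared by RT, the average of the share over 16 overlapping intervals of replication score (0 is late and 1 early). The deposited states hold no read counts, and the intervals given with shares are exact 95% binomial intervals that cover the counting of cells only. No 2 cells had identical states. Cells of 8-cell embryos collected at 72 h (11 cells) stood apart from their stage. Across bins, Spearman's R between their share replicated and that of the remaining cells was 0.0592, against 0.620 to 0.772 for the other 8-cell hours. Cells of 16-cell embryos came from 77 h (9 cells) and 80 h (31 cells) alone, and R between these hours was 0.177. Which of them stands apart cannot be told, and the hour with fewer cells, 77 h, was the one left out. The values of both stages include the 72 h and 77 h cells unless stated, and values without them are given where they were computed. All groups include the cells that failed the study's quality control, 13 of 66 zygotes, 9 of 63 2-cell cells and at most 8 in any other group.

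Dppa4 replicated late in zygotes and earlier in later cleavage stages. It was replicated in 21 of 66 zygotes (31.8%, 95% interval 20.9 to 44.4%), in 25 of 63 2-cell cells (39.7%, 27.6 to 52.8%) and in 21 of 55 4-cell cells (38.2%, 25.4 to 52.3%). At the 8-cell stage it was replicated in 32 of 56 cells (57.1%, 43.2 to 70.3%), at the 16-cell stage in 26 of 40 (65%, 48.3 to 79.4%), in morulae in 37 of 47 (78.7%, 64.3 to 89.3%) and in the ICM in 44 of 69 (63.8%, 51.3 to 75%). The first 3 stages were the lowest of the 7 and morulae the highest, and the interval of morulae overlapped with none of those of the first 3 stages. Without the 72 h and 77 h cells the shares were 64.4% (29 of 45) at the 8-cell and 71% (22 of 31) at the 16-cell stage. In zygotes the median bin was replicated in 57.6% of cells, well above Dppa4, whereas in morulae Dppa4 stood 12.8 percentage points above the median bin. The RT of Dppa4 was 0.295 for zygotes, 0.417 for 2-cell and 0.404 for 4-cell embryos. It was 0.581 and 0.592 at the 8-cell and 16-cell stages, 0.737 for morulae and 0.599 for the ICM. It thus lay under 0.5, the limit between late and early RT, in the first 3 stages and over it in the other 4. The median RT of all protein-coding genes was 0.546 for zygotes, 0.525 for 2-cell and 0.573 for 4-cell embryos. It was 0.606 and 0.667 at the 8-cell and 16-cell stages, 0.727 for morulae and 0.573 for the ICM. With all cells, Dppa4 was therefore later than the median gene up to the 16-cell stage and only slightly earlier in morulae and ICM.

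Dppa2 gave nearly the same values, as its bin adjoins that of Dppa4 and the states had been smoothed over 15 bins. It was replicated in 22 of 66 zygotes, 25 of 63 2-cell cells, 22 of 55 4-cell cells and 32 of 56 8-cell cells. In 16-cell embryos, morulae and ICM the counts were 27 of 40 (23 of 31 without the 77 h cells), 38 of 47 and 44 of 69. RT of Dppa2 and Dppa4 differed by at most 0.0651, in parthenotes, and over all groups 97.1% of 712 cells had both genes in the same state. Of the 21 cells with different states, 18 had only Dppa2 replicated and 3 only Dppa4. The pair was therefore read as 1 locus and not as independent genes.

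Dppa3, the maternal protein gene, had an RT over 0.5 in all 14 groups, although in zygotes it lay below that of the median bin. It was replicated in 36 of 66 zygotes (54.5%, 41.8 to 66.9%), 44 of 63 2-cell cells (69.8%, 57 to 80.8%) and 41 of 55 4-cell cells (74.5%, 61 to 85.3%). The 8-cell, 16-cell and morula counts were 39 of 56 (69.6%, 55.9 to 81.2%), 35 of 40 (87.5%, 73.2 to 95.8%) and 40 of 47 (85.1%, 71.7 to 93.8%), and that of the ICM was 51 of 70 (72.9%, 60.9 to 82.8%). Without the 72 h and 77 h cells the 8-cell share was 77.8% (35 of 45) and the 16-cell share 100% (31 of 31). Zygotes were the lowest of the 14 groups, and only the intervals of 16-cell embryos and morulae did not overlap with theirs. The share lay furthest from the median bin in 4-cell embryos, by 38.2 points, although few bins had been replicated in these cells. The RT of Dppa3 was 0.522 for zygotes, 0.694 for 2-cell, 0.770 for 4-cell and 0.699 for 8-cell embryos. Later stages had 0.820 (16-cell), 0.825 (morula) and 0.677 (ICM). In zygotes 46.4% of all bins had a lower RT than Dppa3, and in 2-cell embryos 93.8%.

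**Figure D1:**
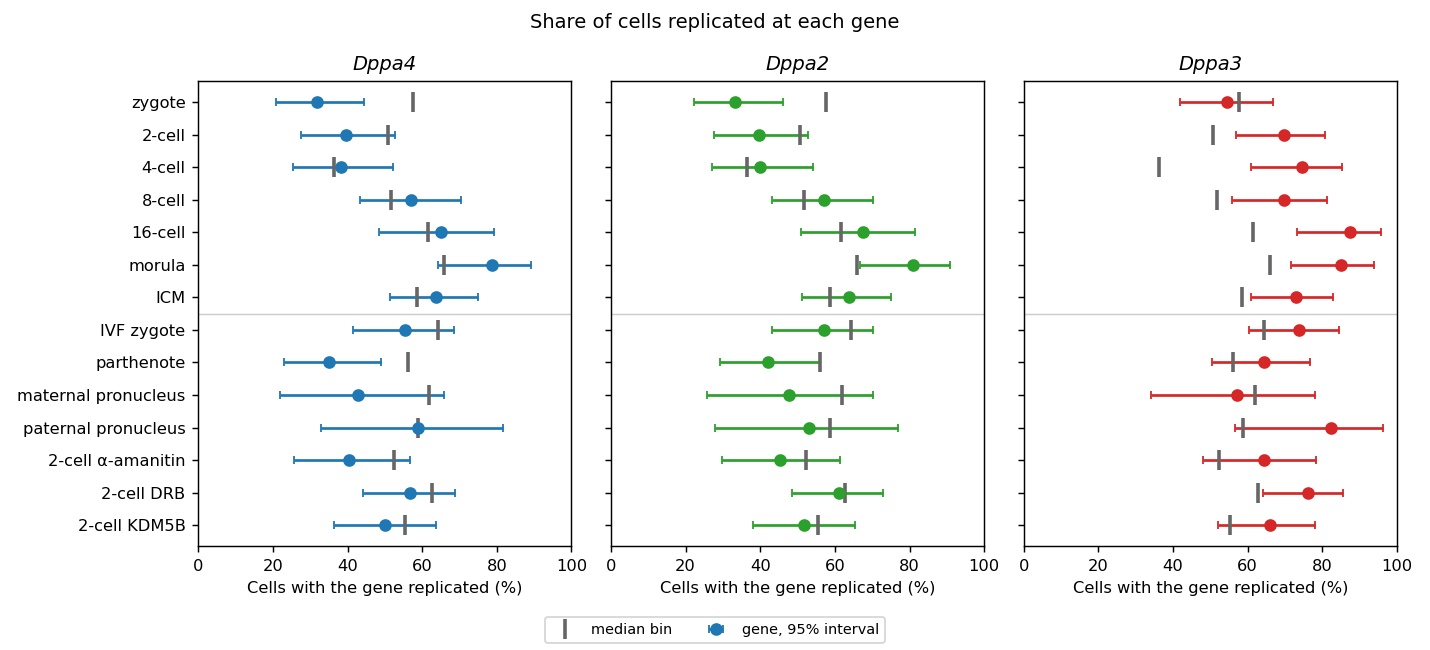
Share of cells (x axis, %) with Dppa4, Dppa2 and Dppa3 replicated in each of the 14 groups (y axis), with exact 95% binomial intervals (horizontal bars) and the share of the median bin of the group (grey ticks). Dppa4 and Dppa2 lie left of the median bin in zygotes and right of it in morulae, and Dppa3 lies right of it in 2-cell embryos to ICM.

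The remaining groups fell between these extremes. Beside these, Dppa4 was replicated in 31 of 56 IVF zygotes (55.4%), 20 of 57 parthenotes (35.1%), 9 of 21 maternal pronuclei (42.9%) and 10 of 17 paternal pronuclei (58.8%). In treated 2-cell embryos it was replicated in 17 of 42 cells with α-amanitin (40.5%), 38 of 67 with DRB (56.7%) and 28 of 56 with KDM5B (50%). Dppa2 followed with 32, 24, 10, 9, 19, 41 and 29 cells of the same groups. Dppa3 was replicated in 42 of 57 IVF zygotes (73.7%), 36 of 56 parthenotes (64.3%), 12 of 21 maternal pronuclei (57.1%) and 14 of 17 paternal pronuclei (82.4%). With α-amanitin it was replicated in 27 of 42 cells (64.3%), with DRB in 51 of 67 (76.1%) and with KDM5B in 37 of 56 (66.1%). In order of share, from zygotes to morulae for Dppa4 and from zygotes to 16-cell embryos for Dppa3, each group overlapped with its neighbour in all 13 steps for each gene. Of the 91 pairs of groups, 9 had separate intervals for Dppa4, 9 for Dppa2 and 2 for Dppa3. Without the 72 h and 77 h cells the numbers were 11, 12 and 11, and 10 of the 11 pairs for Dppa3 included the 16-cell stage. No interval of Dppa4 lay wholly above the share of the median bin, and 2 lay below it, those of zygotes and parthenotes. The interval of Dppa3 lay above the median bin in 7 of 14 groups and below it in 0. Such counts were not taken over all bins, and the shares are not corrected for replication score. Nothing particular to the genes was therefore read from the overlap of intervals, here or above.

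Dppa3 had the higher share and the higher RT of the 2 loci in 14 of 14 groups, by 0.0777 (ICM) to 0.405 (paternal pronuclei) in RT, or to 0.414 in 16-cell embryos without the 77 h cells. RT of Dppa3 exceeded that of the median bin in 13 of 14 groups, all but zygotes, and RT of Dppa4 in 5. Over the 7 untreated stages of natural mating, 396 cells had states for both loci, and 116 of them had replicated Dppa3 but not Dppa4 against 37 with the reverse (111 and 33 of 376 without the 72 h and 77 h cells). The surplus of the first kind follows from the difference in shares and is no separate result.

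The variability score is 1 where a bin is replicated in 50% of cells at equal sampling of S phase and 0 where all cells are alike. For Dppa4 it was 0.590 at the zygote stage, between 0.801 and 0.837 from the 2-cell to the 16-cell stage and in the ICM, and 0.525 for morulae. Of these 7 stages the score was lowest in morulae, where Dppa4 was early, and next in zygotes, where it was late. The score is computed from RT and is no separate result on the spread between cells. For Dppa3 it was 0.955 for zygotes, 0.612 for 2-cell and 0.460 for 4-cell embryos. The later values were 0.603 (8-cell), 0.360 (16-cell), 0.350 (morula) and 0.646 (ICM). Without the 72 h cells the 8-cell scores were 0.702 for Dppa4 and 0.467 for Dppa3, and without the 77 h cells the 16-cell scores were 0.828 and 0. With all cells its lowest score, 0.309, was in paternal pronuclei. Dppa4 exceeded the median bin in variability in 9 of 14 groups, Dppa2 in 11 and Dppa3 in 2.

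To place the genes within S phase, cells were grouped by replication score. Over the 7 stages of natural mating, Dppa4 was replicated in 35 of 119 cells with a score of 10 to 40% (29.4%, 21.4 to 38.5%), 46.9% (38.5 to 55.4%) with 40 to 60% and 77.6% (69.6 to 84.4%) with 60 to 90%. Dppa3 was replicated in 60 of 119 (50.4%, 41.1 to 59.7%), 74.3% (66.4 to 81.2%) and 88.8% (82.2 to 93.6%) of the cells of these ranges. Without the 72 h and 77 h cells the shares of the 3 ranges were 28.7%, 47.4% and 78.2% for Dppa4 and 53.7%, 75% and 88.7% for Dppa3. Dppa3 had the higher share in each range. In zygotes Dppa4 was still unreplicated in 13 of 26 cells with a score over 60%, whereas in morulae it had been replicated in 5 of 10 cells with a score under 40%. In 2-cell embryos Dppa4 was replicated in 3 of 20, 12 of 29 and 10 of 14 cells of the 3 ranges. These counts are small, and for Dppa4 the intervals of the 2-cell stage and morulae overlapped in every range.

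**Figure D2:**
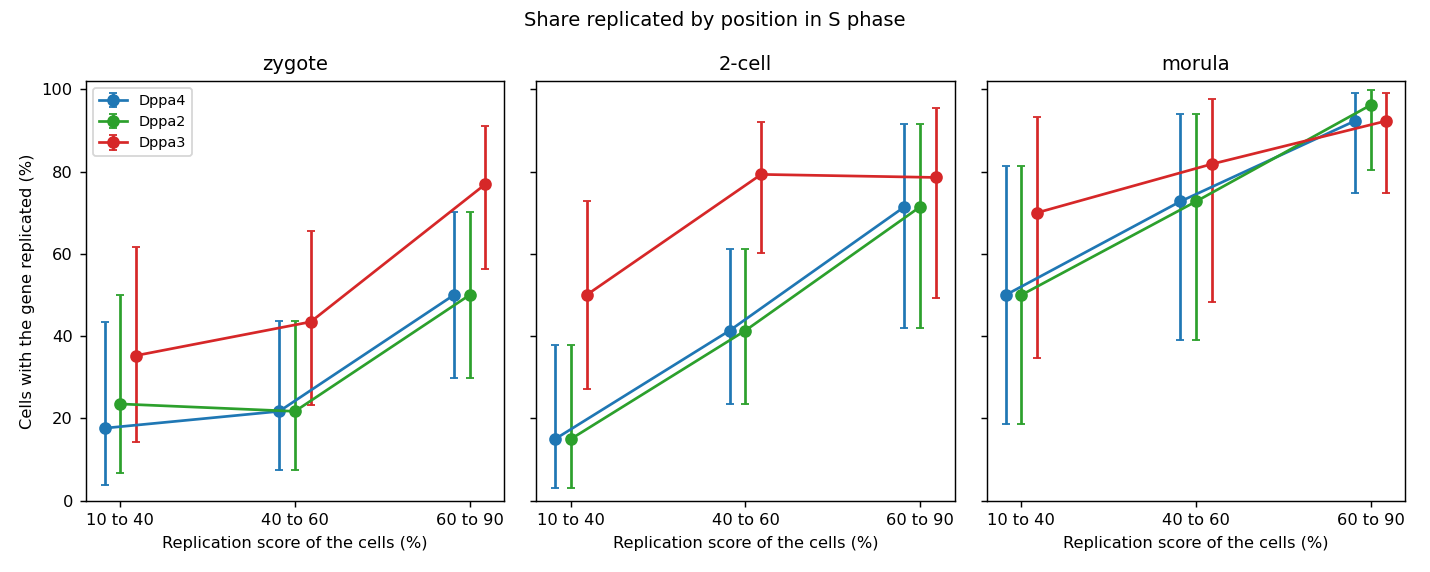
Share of cells (y axis, %) with each gene replicated in 3 ranges of the cells' replication score (x axis, %) in zygotes, 2-cell embryos and morulae, with exact 95% binomial intervals. Dppa4 in cells with a score of 10 to 40% was replicated in 17.6% of zygotes, 15% of 2-cell cells and 50% of morula cells.

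Next, the surroundings of each gene were described. Dppa4 and Dppa2 lay on a slope. RT was lower 500 kb to the left (toward lower coordinates), in a stretch where the annotation has no protein-coding gene, than 550 kb to the right in 14 of 14 groups. In zygotes it rose from 0.234 over 0.295 at Dppa4 to 0.487, and at the 4-cell stage from 0.126 over 0.404 to 0.435. In morulae it rose from 0.269 over 0.737 to a top of 0.836 at 300 kb and was at 0.574 at the right end. The top lay to the right of Dppa4 in 14 of 14 groups, and with all cells the gene was in no group within 0.05 of it. Without the 72 h cells the 8-cell values were 0.649 at Dppa4 and 0.698 at the top. The range of RT over the region ran from 0.184 in 2-cell embryos, the flattest profile, to 0.581 in maternal pronuclei, and it was 0.567 in morulae.

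The protein-coding genes on this slope are few. Gm5485 and Morc1, a gene needed for silencing transposons in the male germ line, lie next to Dppa2 on its right and had an RT of 0.380 and 0.438 in zygotes. At the 2-cell stage they were at 0.449 and 0.479 and in morulae at 0.806 and 0.816. Trat1, which encodes an adaptor of the T cell receptor, was at 0.474, 0.483 and 0.710 at these stages. Retnlb, which encodes a resistin-like protein of the gut, lay furthest away at 0.487, 0.477 and 0.574. The bins nearer to Dppa4 and Dppa2 thus began later than Retnlb in zygotes and were earlier than it in morulae.

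Dppa3 lay on a plateau. In 3 of the 21 bins of its region, at the left end, only zygotes and maternal pronuclei had states, and the other 18 bins were compared. Dppa3 was within 0.05 of the highest RT of the region in 13 of 14 groups. The exception was DRB embryos, in which the top was 0.776 and Dppa3 at 0.718. RT 500 kb to the right was lower than 350 kb to the left, the leftmost bin with states in all groups, in 13 of 14 groups, the exception being maternal pronuclei. In zygotes, which had states further out, RT was 0.192 at 500 kb to the left and 0.199 at 500 kb to the right, so that it was low on both sides. In maternal pronuclei these values were 0.197 and 0.339. At the 2-cell stage RT dropped from 0.694 at Dppa3 to 0.124 at 500 kb, and for morulae from 0.825 to 0.372. The ICM had the flattest profile, with a range of 0.256, and DRB embryos the steepest, with 0.619, although 16-cell embryos without the 77 h cells had 0.649.

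Genes of the early embryo and germ line share this plateau with Dppa3. Nanog, a transcription factor of pluripotency, was at an RT of 0.509 (zygote), 0.629 (2-cell), 0.789 (morula) and 0.674 (ICM). Apobec1, which encodes an RNA-editing cytidine deaminase, was at 0.522 (zygote), 0.695 (2-cell) and 0.825 (morula). Slc2a3, a glucose transporter gene to the right of Nanog, was at 0.475 (zygote), 0.560 (2-cell) and 0.758 (morula). Phc1, which encodes a Polycomb protein and lies toward the left end, was at 0.338, 0.608 and 0.698. The genes for C-type lectin receptors of myeloid cells lay at the foot of the slope, where Clec4a2 was at 0.199, 0.124 and 0.372. Of the 18 other protein-coding genes of the region, 18 had a higher RT in morulae than in 2-cell embryos, beside 85.5% of all protein-coding genes. These neighbours share smoothed states and are not independent.

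**Figure D3:**
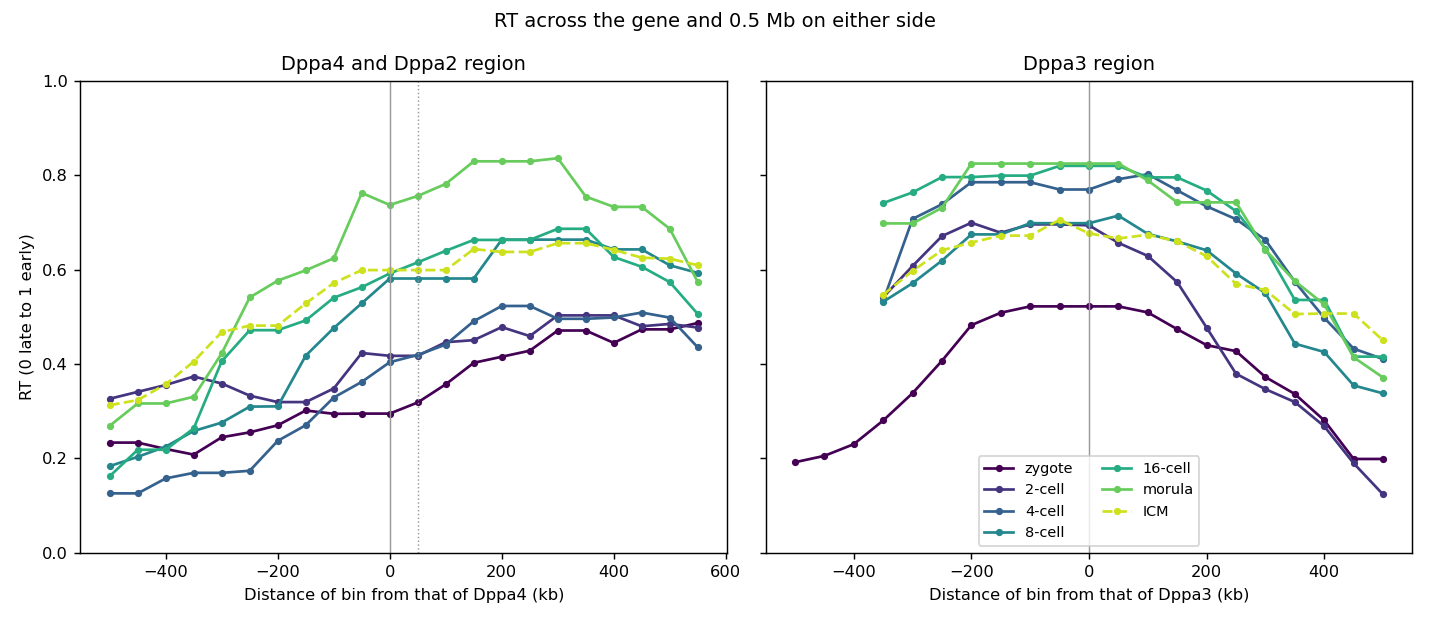
RT (y axis, 0 late to 1 early) of each 50 kb bin against its distance from the bin of Dppa4 (left; the dotted line marks Dppa2) or Dppa3 (right) in kb, for the 7 stages of natural mating. The Dppa4 and Dppa2 region rises to the right and reaches 0.836 in morulae, and the Dppa3 region is a plateau that falls to between 0.124 and 0.450 at 500 kb.

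The states of single cells were then described over both regions. RT is an average of these same states. The side on which cells with 1 change were replicated therefore follows largely from the slope of RT and is no separate result. In the Dppa4 and Dppa2 region, 49.6% of 712 cells had the same state throughout, 210 of them unreplicated. Another 271 cells changed state at 1 place, of which 244 were replicated on the right and 27 on the left. Cells replicated on the right outnumbered the reverse in 14 of 14 groups. The place of this change moved: its median was 50 kb to the right of the start of Dppa4's bin in zygotes and 150 kb to the left of it in 8-cell embryos and ICM, and 200 kb to the left in morulae. In 24 of 28 8-cell cells with 1 change it lay to the left of the gene (23 of 25 without the 72 h cells), and in 11 of 23 zygotes. Few 4-cell cells had replicated the whole region, 2 of 55, whereas 14 of 47 morula cells and 23 of 69 ICM cells had.

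In the Dppa3 region, 178 of 713 cells were replicated throughout and 176 nowhere. Of 278 cells with 1 change, 239 were replicated on the left, the side of the plateau, and 39 on the right. The left side led in 13 of 14 groups. The exception was maternal pronuclei, with 3 cells against 5. The change lay to the right of Dppa3, at a median of 250 kb, in 228 of the 278 cells. It lay at 250 kb in 2-cell embryos, 375 kb in morulae and 150 kb in the ICM. Since states were smoothed over 15 bins, or 750 kb, before deposit, the places of change are coarser than the bins.

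**Figure D4:**
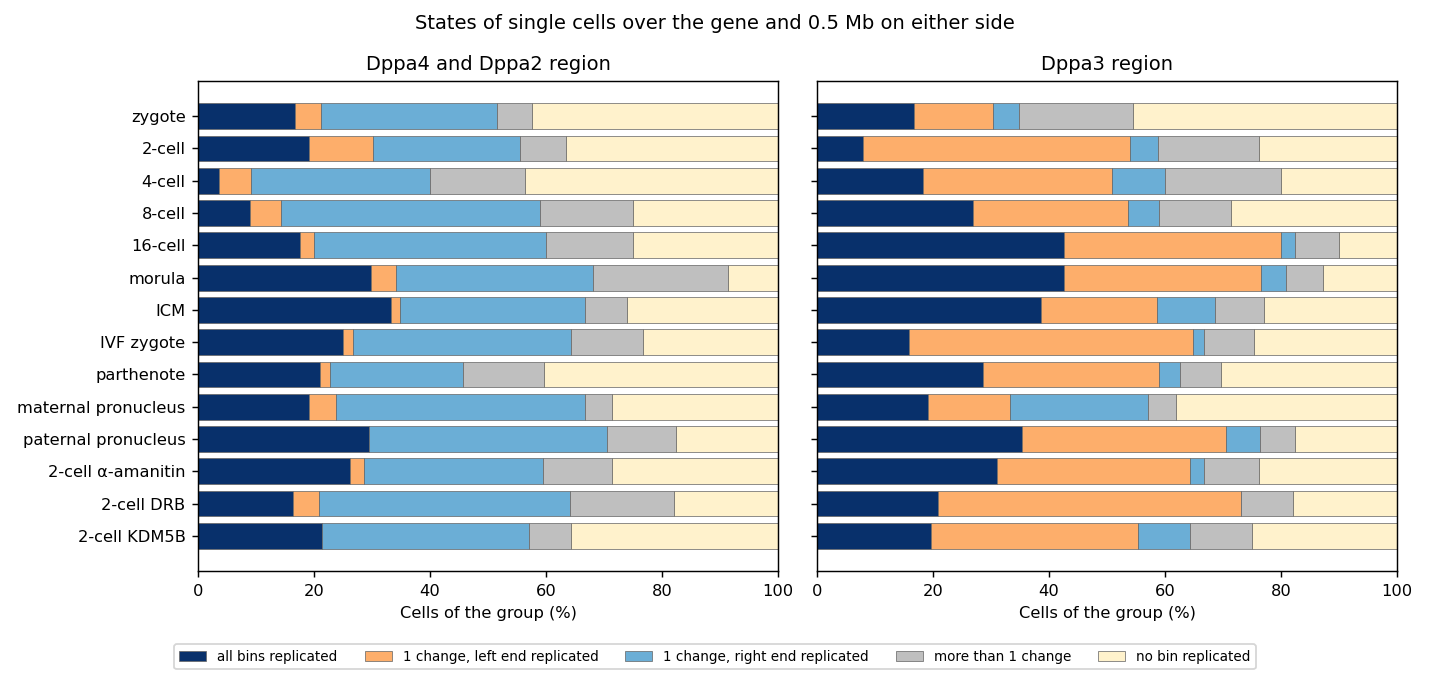
Share of cells (x axis, %) of each group (y axis) by the pattern of states over the gene and 0.5 Mb on either side, for bins with states in all groups. In the Dppa4 and Dppa2 region cells with 1 change were mostly replicated at the right end (244 of 271), and in the Dppa3 region mostly at the left end (239 of 278).

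Differences between stages were then taken from RT, and a difference of 0.2 or more was counted as earlier or later, as a size and not as a test. The shares of bins set beside the differences are those with all cells. None was computed for differences with some cells left out. From zygotes to 2-cell embryos Dppa4 was earlier by 0.122, Dppa2 by 0.0988 and Dppa3 by 0.172. None reached 0.2, which 4.32% of bins did in either direction, but 97.0% of bins had a smaller difference than Dppa3. With only the cells that passed quality control, the difference of Dppa3 was 0.232 and so above 0.2. From 2-cell to 4-cell embryos the differences were −0.0135 for Dppa4, 0.00195 for Dppa2 and 0.0760 for Dppa3 (13.4% of bins reached 0.2 either way), and that of Dppa3 was 0.0128 with only passing cells. From the 4-cell to the 8-cell stage Dppa4 was earlier by 0.177 and Dppa2 by 0.162, while Dppa3 was at −0.0714 (9.99% of bins). This step changed with the collection hour. In the 8-cell cells of 72 h Dppa4 was replicated in 3 of 11 and in the others in 29 of 45, and without the 72 h cells the difference rose to 0.245 for Dppa4 and 0.229 for Dppa2 and was −0.00340 for Dppa3.

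From the 8-cell to the 16-cell stage Dppa4 differed by 0.0107, Dppa2 by 0.0343 and Dppa3 by 0.122 (4.19% of bins reached 0.2). Dppa3 was replicated in 31 of 31 16-cell cells of 80 h and in 4 of 9 of 77 h, whose mean replication scores were 61.6% and 33.4%. Without the cells of 72 h and 77 h the difference of Dppa3 was 0.233 and those of Dppa4 and Dppa2 turned to −0.0627 and −0.0381. From 16-cell embryos to morulae Dppa4 was earlier by 0.145 and Dppa2 by 0.141, and Dppa3 differed by 0.00485 (4.36% of bins), or by −0.175 without the 77 h cells. For Dppa4 and Dppa2 the differences were then 0.151 and 0.146. From morulae to the ICM all 3 genes were later, by −0.138 for Dppa4, −0.157 for Dppa2 and −0.148 for Dppa3, in a comparison in which 25.3% of bins reached 0.2 in either direction. With the earlier of the 2 ICM collections alone (96 h on) the difference was −0.260 for Dppa4 and −0.279 for Dppa2, and with the later one −0.0769 and −0.0960. For Dppa3 both collections gave similar values, −0.161 and −0.153.

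From 2-cell embryos to morulae Dppa4 became earlier by 0.320 and Dppa2 by 0.339. The genes had been chosen with this step known. Both genes passed 0.2, as did 23.8% of all bins in the direction of earlier RT, and 94.4% and 96.0% of bins had a smaller difference. Dppa3 was earlier by 0.131, above 63.2% of bins, and by 0.0849 with only passing cells. The median bin was earlier by 0.0514. Among all protein-coding genes, 47.3% passed 0.2 in this direction and the median gene was earlier by 0.191. Dppa4 and Dppa2 thus moved more than the median gene, and Dppa3 moved less.

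Among zygotes, the way of making the embryo was compared next, each time against the same zygotes of natural mating. IVF zygotes were earlier by 0.170 for Dppa4, 0.161 for Dppa2 and 0.149 for Dppa3. No gene reached 0.2, as 8.94% of bins did, although 86.6% to 90.2% of bins had smaller differences than the 3 genes. Parthenotes, which have no paternal genome, differed from zygotes by 0.00854 for Dppa4, 0.05 for Dppa2 and 0.0772 for Dppa3 (8.55% of bins reached 0.2). In shares, IVF zygotes stood at 55.4% for Dppa4 beside 31.8% in zygotes and 35.1% in parthenotes. The mean replication scores were 61.1%, 54.3% and 55%.

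Paternal pronuclei were earlier than maternal ones at Dppa3 by 0.285, with an RT of 0.846 against 0.561. At Dppa4 and Dppa2 the difference was 0.103 and 0.0106. Dppa3 passed 0.2 in the direction of earlier paternal RT, as did 9.76% of bins, and 96.6% of bins had a smaller difference. The shares, 14 of 17 and 12 of 21, had overlapping intervals of 56.6 to 96.2% and 34 to 78.2%. The difference rests on few nuclei and was not alike over S phase. With a replication score of 10 to 40%, Dppa3 was replicated in 3 of 3 paternal and 1 of 2 maternal pronuclei. With 40 to 60% the maternal share was the higher, at 6 of 9 against 3 of 5. With 60 to 90% the counts were 8 of 9 paternal and 5 of 10 maternal pronuclei. In 10 pairs of a maternal and a paternal pronucleus with the same number in the labels, Dppa3 was replicated in the paternal one alone in 5, in the maternal one alone in 2 and alike in 3, a paired difference of 0.3. For Dppa4 the paternal one alone was replicated in 4, the maternal one alone in 2 and both alike in 4. By the methods both pronuclei of a zygote were processed, but neither the labels nor the methods say that a shared number marks a zygote. Maternal and paternal pronuclei were told apart by title alone, and the states allow no check of parental origin.

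Treated 2-cell embryos were compared with untreated 2-cell embryos, which all 3 comparisons share. With α-amanitin the differences were −0.0138 for Dppa4, 0.0316 for Dppa2 and −0.0705 for Dppa3, all under 0.2, which 7.24% of bins reached. With DRB Dppa4 was earlier by 0.124, Dppa2 by 0.157 and Dppa3 by 0.0241 (5.81% of bins reached 0.2). Of all bins, 83.5% had a smaller difference than Dppa4. With KDM5B the values were 0.0499 for Dppa4, 0.0670 for Dppa2 and −0.0428 for Dppa3 (2.41% of bins). Without the 9 untreated 2-cell cells that failed quality control, the differences of Dppa3 were −0.128 with α-amanitin, −0.0331 with DRB, where the sign turned, and −0.100 with KDM5B. The treated cells were not in the quality table. Over the collection hours that KDM5B and untreated embryos share, the difference of Dppa3 was −0.210. In untreated 2-cell embryos Dppa3 was replicated in 23 of 28 cells of the shared hours and in 21 of 35 of the others.

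**Figure D5:**
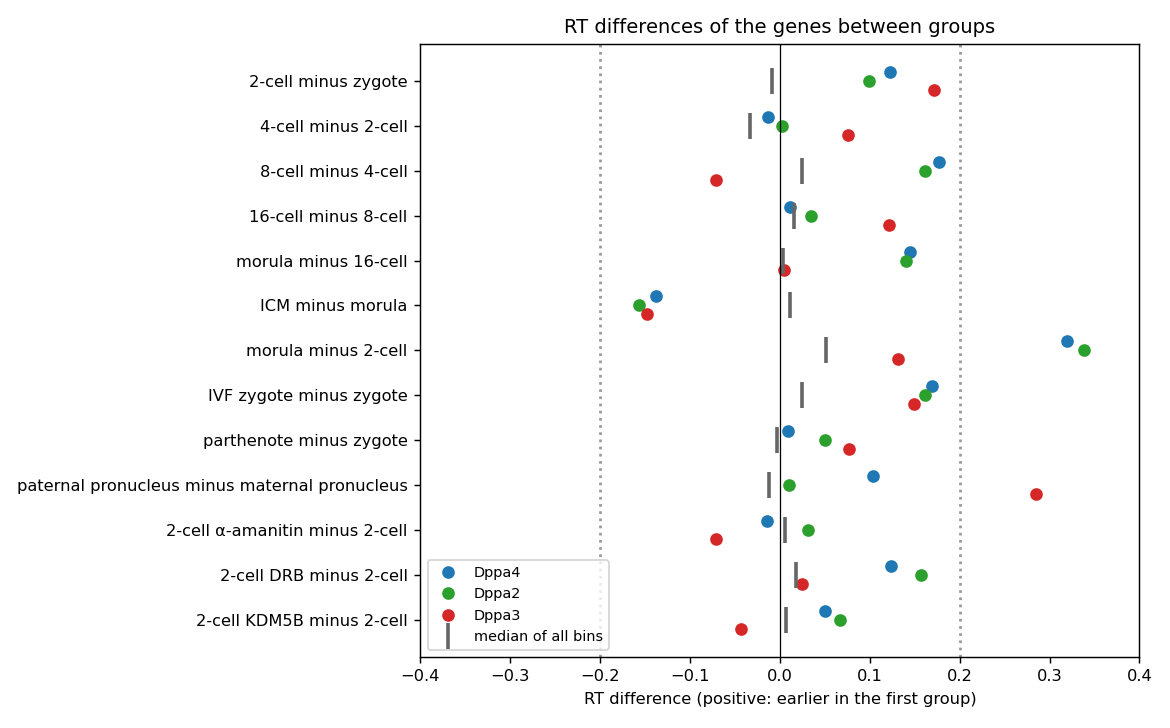
RT difference (x axis, positive where the first group was earlier) of Dppa4, Dppa2 and Dppa3 in 13 comparisons (y axis), with the median of all bins (grey ticks) and lines at 0.2 in both directions. Dppa4 and Dppa2 pass 0.2 between 2-cell embryos and morulae, and Dppa3 between maternal and paternal pronuclei.

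The collection hours within a group varied widely, at few cells each. In 2-cell embryos Dppa4 was replicated in 4 of 5 cells at 32 h and 5 of 6 at 40 h, and in 2 of 9 to 3 of 7 cells at the hours between. Dppa3 was replicated in 8 of 8 zygotes at 26 h and in 28 of 58 before. In zygotes Dppa4 showed no such step, with 2 of 8 cells at 26 h. The mean replication score of the 26 h zygotes was 63%, the highest of the 7 hours.

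Finally, the genes around these proteins in function were set beside them, for the step from the 2-cell stage to morulae, in which 47.3% of all protein-coding genes became earlier by at least 0.2 and the median gene by 0.191. Of the Dppa-named genes, 3 of 5 were: Dppa2, Dppa4 and Dppa1, at 0.285. Dppa5a, an RNA-binding protein gene of pluripotent cells, was earlier by 0.161. Of 6 genes for proteins that act with or on DPPA2 and DPPA4, 5 were earlier by at least 0.2. They were the SUMO ligase gene Pias4 (0.239), Sumo2 (0.327), the corepressor gene Trim28 (0.395), the H3K4 methyltransferase gene Kmt2b (0.303) and the Polycomb gene Rnf2 (0.259), and the remodeller gene Smarca5 differed by 0.0614. Trim28 was late in zygotes, at 0.195.

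Of 9 target genes of DPPA2 and DPPA4, 6 lay in bins without states: Duxf3, Zscan4c, Zscan4d, Zscan4f, Tcstv1 and Tcstv3, all members of repeated gene clusters. Of the 3 with values, Nkx2-5, a heart transcription factor gene, was earlier in morulae by 0.464 and Syce1, a gene of the meiotic synaptonemal complex, by 0.322. Zfp352, which is transcribed in the 2-cell embryo, differed by −0.240, from 0.464 to 0.224, and so became later. Of 5 genes for factors around DPPA3, 3 were earlier by at least 0.2: Uhrf1 (0.249), which encodes the partner of DNMT1 at hemimethylated DNA, Tet3 (0.241), which encodes the methylcytosine dioxygenase of the zygote, and Trim28. The gene of the maintenance methyltransferase, Dnmt1, differed by 0.0375 and Zfp57, which encodes a keeper of imprints, by 0.124. With so few members, nothing was read from the counts of these lists beside the share of all genes.

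The genes whose RT over the 14 groups was most like that of each locus, after the median bin of the group was subtracted, were sought more than 5 Mb away or on other chromosomes. For Dppa4 and Dppa2 together they were Tsg101 (Pearson's r 0.905), an ESCRT gene, Vmn1r85 (0.901), a vomeronasal receptor gene, and Uevld (0.90), all on chromosome 7, out of 19767 genes. For Dppa3 they were Ankrd46 (0.944), Pabpc1 (0.940), which encodes a poly(A)-binding protein, and Snx31 (0.933), neighbours on chromosome 15, out of 19686 genes. Tsg101 and Uevld are neighbours too, so that each set holds neighbouring bins. These are highest values over many genes and 14 points that share cells, and are given as a description.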

How the data were processed

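The authors deposited, per 50 kb bin of the GRCm38 (mm10) genome, a state of 1 (replicated), 0 (unreplicated) or no value for each cell, in 14 tables, so the deposited values are binary states and not counts. Per the methods, reads were aligned with Bowtie2 2.3.5, filtered with SAMtools 1.9 (proper pairs, no duplicates, MAPQ of at least 20) and binned with bedtools 2.29.0. Depth-scaled reads were set relative to each bin's stage average, extreme bins were masked, values were centred, scaled and smoothed by a running median of 15 bins, and states came from a mixture fit. Neighbouring bins therefore share states, and a copy number that all cells of a stage share leaves no trace. Of 1016 labelled samples, 733 had states and 714 had a replication score of 10 to 90%.

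Here, groups came from sample titles. Per the methods, the authors checked parental origin by sequence variants in their allele-specific analysis. They exchanged pronuclei that read as the other parent and left out several IVF zygotes that proved parthenogenetic. Neither step could be repeated from the states, and whether the deposited tables include them is not known. The share of cells replicated and its exact 95% binomial interval were computed per bin with Python 3.11.15. So were RT (the mean over 16 score intervals, each 35 points wide) and the variability score. The latter is 1 minus the distance of RT from 0.5, divided by 0.5. Genes were placed with GENCODE M21. RT of a gene is the mean over the bins it touches. No p-value was computed, since each group is 1 pooled sample and cells are not replicates. The script was tested on simulated data. The members and gene lists were chosen with earlier results of these data known. Genes named are the 3 genes, the fixed lists and, for likeness, the 3 highest. Alternatives were the raw share, cells that passed the study's quality control (main values include failed cells, and the 37 ICM, 17 paternal pronucleus, 42 α-amanitin, 67 DRB and 56 KDM5B cells not in the quality table were kept), scores of 20 to 80%, the mean of the region, shared hours and, chosen after seeing the data, leaving out the 72 h and 77 h cells from shares, score ranges, variability and single-cell states.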

Additional observations from a re-analysis of the deposited data

How the results depend on the processing

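Of 183 alternative values of RT differences, 20 changed sign or reached 0, and all 20 belonged to differences under 0.2. Of the 13 alternatives for differences of 0.2 or more, 0 fell under 0.2, with 0.215 to 0.390 for Dppa4 and 0.215 to 0.412 for Dppa2 from the 2-cell stage to morulae, and 0.252 to 0.306 for Dppa3 between pronuclei. Another 11 alternatives newly reached 0.2, among them Dppa3 from zygotes to 2-cell embryos with only passing cells (0.232), the raw shares of IVF zygotes against zygotes (0.235 for Dppa4 and 0.238 for Dppa2) and of DRB for Dppa2 (0.215), and the collections left out above. The share of all bins that reached 0.2 under these alternatives was not computed, so nothing was read from their number. Raw shares are not corrected for replication score, whose mean was 61.1% in IVF zygotes and 54.3% in zygotes. Averaged over the region, the share of Dppa3 was 39.97% in place of 54.5% in zygotes, 51.5% in place of 69.8% at the 2-cell stage, 55.4% in place of 73.7% in IVF zygotes and 61.9% in place of 76.1% with DRB. These averages took 21 bins in zygotes and maternal pronuclei, with the late bins at the left end, and 18 bins in the other groups. They are therefore not alike between groups. Over the 18 shared bins the mean RT was 0.408 in zygotes, 0.463 in maternal and 0.687 in paternal pronuclei. Without the 77 h cells, Dppa3 was replicated in 100% of 16-cell cells, and its difference to morulae was −0.175 in place of 0.00485. Over shared hours, Dppa3 differed between KDM5B and untreated embryos by −0.210 in place of −0.0428. The causes were not tested.

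With same-numbered pronuclei as a replicate block (10 pairs), the paired paternal minus maternal difference in the share replicated was 0.2 for Dppa4, 0 for Dppa2 and 0.3 for Dppa3. Both pronuclei of a zygote were processed, but no source says that numbers pair them. No label ties a cell to a litter or animal, and the deposited states hold no read counts, so the precision given is that of the number of cells alone.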
